A study of Mus musculus with 4 samples.

Results

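The genes described here were Cd4, the co-receptor chain of helper T cells, Cd8a and Cd8b1, the alpha and beta chains of the co-receptor of killer T cells, and Zbtb7b and Runx3, the transcription factors that set the choice between these lineages. They were chosen by name, as 5 of the 31053 genes listed in each expression matrix, and were read in 19020 cells of replicate 1 and 15898 of replicate 2 with at least 1000 unique molecular identifiers (UMIs, each counting 1 captured transcript), 500 genes and at most 10% mitochondrial UMIs. Itgae, the CD103 integrin chain, and Gzma, granzyme A, were followed as readouts of the cells that carried them. The cells were sorted as TS1 transgenic CD4 T cells in a mouse model of graft-versus-host disease, an attack by transferred T cells on the tissues of their host. Both groups have the strain label BALB/c RAG2-/- TS1 Tg. RAG2-/- cells rearrange no receptor of their own, so the T cells depend on the transgenic TS1 receptor. The cells were sorted 4 weeks post-transplantation from spleen, colon, skin, small intestine intraepithelial cells and small intestine lamina propria. Cells of these 5 compartments were pooled into 1 droplet library per replicate, without a control group. The recipient strain and the number of animals per pool are not given in the sources used here. No statement in the labels says that the replicates were separate animals, so SDs measure the spread between 2 pooled libraries. In the tests the library was a block. Their p-values therefore measure class differences against the scatter left after the difference between libraries was taken out. This scatter was estimated with information shared across genes, and not from a gene's own values in 2 pooled libraries alone. A small p-value is therefore no measure of replication across animals. The hashtag libraries that should assign cells to tissues list 0 hashtag features, so no cell was given a tissue, and tissue and cell class cannot be told apart.

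A T cell's co-receptor binds the same major histocompatibility molecule as its T cell receptor and brings the kinase Lck to it, CD4 for class II and CD8 for class I. In the thymus, Zbtb7b (ThPOK) maintains the CD4 lineage by repressing Runx3 and CD8 genes, and Runx3 with its partner Cbfb silences Cd4 and Zbtb7b and sustains Cd8a. Conventional CD8 T cells carry CD8 alpha-beta heterodimers. In the gut epithelium, CD4 T cells can lose ThPOK, gain Runx3, CD103 and granzymes and display CD8 alpha homodimers, without Cd8b1, on top of CD4.

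Depth differed between the libraries, with a median of 2688 UMIs per kept cell in replicate 1 and 3699 in replicate 2. Clusters led by neutrophil, myeloid, epithelial, erythroid or basophil markers held 739 cells and were left out. The rest are called T cells below: 93.0% had a UMI of Cd3e, against 35.9% to 63.5% of the cell types left out. At least 99.5% of every class below had a UMI of a T cell receptor constant gene (Trac, Trbc1 or Trbc2). The 29 cells of cluster 19, led by fibroblast genes such as Dcn and Lum, were kept among them. The 2 libraries shared 599 cell barcodes. Cluster 2 stood apart, since 5518 of its 5707 cells came from replicate 1 and its median was 1483 UMIs. To compare cells at 1 depth, each T cell was thinned at random to 1500 UMIs, which 14919 cells of replicate 1 and 14628 of replicate 2 reached and 4632 did not. Levels are in CPM, a gene's share of all UMIs summed over a class in a library, on a scale where 1 UMI in a thinned cell equals 667 CPM. The chemistry tags the 3' end of a transcript, so UMIs of different genes count molecules without a length term.

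Cd8a (ENSMUSG00000053977) lies at chr6:71373427-71379173 on the plus strand of mm10, and Cd8b1 (ENSMUSG00000053044) at chr6:71322788-71337494, 35.9 kb away on the same strand. Cd4 (ENSMUSG00000023274) lies on the same chromosome at chr6:124864692-124888221, minus strand. Zbtb7b (ENSMUSG00000028042) lies at chr3:89377644-89394776, minus strand, and overlaps Gm15417 on the opposite strand. Runx3 (ENSMUSG00000070691) lies at chr4:135120652-135177990, plus strand, and overlaps Gm16224 on the opposite strand. Promoters, from 250 bases before to 50 after a start site, were taken from RefSeq (GRCm38.p6) for 4 of the 7 genes and are shown because Runx proteins bind a known core hexamer, which was searched on both strands. The hexamer TGTGGT or its reverse complement ACCACA (capitals) stood 2 times in the promoter of the upstream Runx3 start, 1 time in that of the inner Zbtb7b start and 1 time in that of Gzma, and 0 times in those of Cd8a, the outer Zbtb7b start and the inner Runx3 start. Of all 32851 promoters in the table, 16.8% held at least 1 copy and 1.81% held 2 or more. The letters describe these windows only and show no binding. Whether reads of the overlapping genes were kept apart by strand is not given in the sources used here.
Runx3 upstream start, chr4:135120395-135120694, plus strand: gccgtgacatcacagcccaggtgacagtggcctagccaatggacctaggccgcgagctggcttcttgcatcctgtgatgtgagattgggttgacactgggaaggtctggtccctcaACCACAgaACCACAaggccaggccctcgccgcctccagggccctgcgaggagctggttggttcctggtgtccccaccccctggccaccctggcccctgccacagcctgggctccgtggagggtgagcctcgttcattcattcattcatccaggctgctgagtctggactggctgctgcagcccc
Zbtb7b inner start, chr3:89387622-89387921, minus strand: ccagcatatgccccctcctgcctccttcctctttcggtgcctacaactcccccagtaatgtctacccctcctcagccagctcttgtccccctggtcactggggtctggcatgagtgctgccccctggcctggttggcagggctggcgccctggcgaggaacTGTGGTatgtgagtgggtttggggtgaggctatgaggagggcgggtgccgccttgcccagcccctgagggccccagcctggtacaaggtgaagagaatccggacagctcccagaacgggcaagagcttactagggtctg
Gzma, chr13:113100932-113101231, minus strand: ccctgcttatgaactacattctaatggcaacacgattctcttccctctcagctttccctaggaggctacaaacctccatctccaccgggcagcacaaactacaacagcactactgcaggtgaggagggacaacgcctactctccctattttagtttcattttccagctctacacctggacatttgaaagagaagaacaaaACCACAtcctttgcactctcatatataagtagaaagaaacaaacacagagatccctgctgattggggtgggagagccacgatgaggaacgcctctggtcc
Cd8a, chr6:71373177-71373476, plus strand: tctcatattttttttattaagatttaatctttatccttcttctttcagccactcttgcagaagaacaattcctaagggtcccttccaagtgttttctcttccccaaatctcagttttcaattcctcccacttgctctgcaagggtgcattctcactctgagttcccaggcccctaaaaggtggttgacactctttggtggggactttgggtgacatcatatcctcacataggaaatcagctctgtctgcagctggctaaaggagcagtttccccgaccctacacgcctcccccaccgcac

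At 1500 UMIs per cell, a Cd8a UMI was found in more of these CD4 T cells than a Cd4 UMI. Cd8a was detected in 33.1% of T cells of replicate 1 and 29.9% of replicate 2, and Cd4 in 25.3% and 26.4%. At full depth this order turned, with Cd8a in 41.7% and 39.9% and Cd4 in 42.9% and 54.6%. Cd8b1 was detected in 6.49% and 6.08%, Zbtb7b in 2.14% and 1.71% and Runx3 in 36.2% and 38.8%. Summed over all T cells, Cd8a stood at 496 and 457 CPM, Cd4 at 202 and 213, Cd8b1 at 48.2 and 46.7, Zbtb7b at 14.6 and 11.7 and Runx3 at 317 and 352, so the order Cd8a, Runx3, Cd4, Cd8b1, Zbtb7b was the same in both libraries with no overlap between neighbours.

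The joint classes kept the same order in the 2 libraries. Neither Cd4 nor Cd8a was detected in 50.6% ± 1.17 (SD, n = 2) of T cells, Cd4 only in 17.9% ± 1.05, Cd8a only in 23.5% ± 1.96 and both in 8.01% ± 0.262. The double-detected share was 8.19% in replicate 1 (exact binomial, or Clopper-Pearson, 95% interval 7.76 to 8.64, which covers counting error only) and 7.82% in replicate 2 (7.39 to 8.27). The libraries differed beyond counting error in Cd8a only, at 24.9% (24.2 to 25.6) and 22.1% (21.4 to 22.8). They also did in Cd4 only, at 17.1% (16.5 to 17.7) and 18.6% (18.0 to 19.2). Without cluster 2, Cd8a only was at 21.9% and 22.1% and Cd4 only at 18.3% and 18.6%. A Cd8b1 UMI was added in 0.880% ± 0.0548 of T cells with both, in 2.6% ± 0.308 with Cd8a only, in 0.812% ± 0.00174 with Cd4 only and in 1.99% ± 0.0756 with neither. These classes record what was drawn from a cell and not what it holds, so they moved with depth. At full depth, 34.3% and 30.0% had neither and the double-detected share was 18.9% and 24.5%, and at 1000 UMIs its mean was 4.83%.

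**Figure D1:**
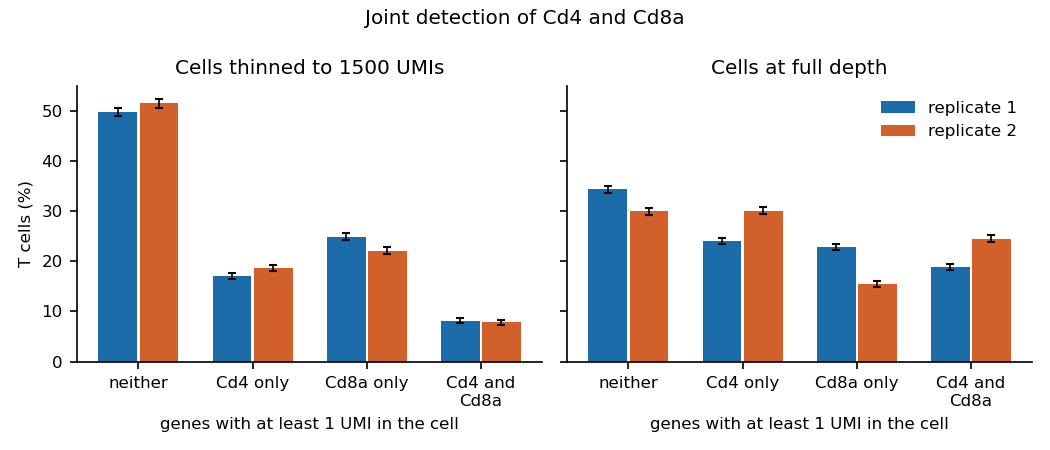
Share of T cells (percent) with a UMI of neither gene, Cd4 only, Cd8a only or both, at 1500 UMIs per cell (left) and at full depth (right). Bars are single libraries and error bars are exact binomial 95% intervals; at 1500 UMIs the double-detected class is 8.19% and 7.82%, and at full depth 18.9% and 24.5%.

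At 1500 UMIs per cell, detection of Cd8a was nearly as common with Cd4 as without it. Among Cd4-detected cells, Cd8a was detected in 32.4% of replicate 1 and 29.6% of replicate 2, against 33.3% and 30.1% of Cd4-undetected cells, odds ratios of 0.957 and 0.978. At full depth the odds ratios were 1.18 and 1.58. The Cd8a level was 498 and 442 CPM with Cd4 detected and 495 and 463 CPM without. Groups overlapped, and the log2 difference of -0.04 ± 0.032 (SE, interval of 2 SE from -0.11 to 0.02) had an adjusted p of 0.509 in edgeR's quasi-likelihood test, in a fit that called 5.92% of 11157 genes. In turn, Cd4 was at 196 and 213 CPM with Cd8a detected and at 205 and 212 CPM without, a log2 difference of -0.02 ± 0.048 (interval from -0.11 to 0.08, adjusted p = 0.84), in a fit that called 39.2% of 11204 genes. At full depth, where double detection also follows cell size, Cd8a was higher with Cd4 detected (log2 0.25, adjusted p = 4.18e-05) and Cd4 lower with Cd8a detected (-0.09, adjusted p = 0.0275).

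Pairs of Cd8a with Cd8b1, Zbtb7b or Runx3 were less balanced. Cd8b1 was detected in 11.3% and 10.8% of Cd8a-detected cells against 4.11% and 4.08% of the rest, odds ratios of 2.98 and 2.84. Zbtb7b was detected in 1.13% and 0.685% of Cd8a-detected cells against 2.64% and 2.15% of the rest, odds ratios of 0.423 and 0.314. Runx3 went the other way, in 42.4% and 45.6% against 33.2% and 35.8%, odds ratios of 1.48 and 1.5. Zbtb7b and Runx3, which repress each other in the thymus, had odds ratios of 0.921 and 1.02 with each other, on opposite sides of 1, and 1.21 and 1.05 at full depth. For Cd4 and Zbtb7b the odds ratios were 1.35 and 1.20. They were nearer 1 for Cd4 and Runx3 (1.05 and 1.08) and for Cd4 and Cd8b1 (1.08 and 1.04). At full depth the odds ratios were 1.76 and 1.86 for Cd4 with Zbtb7b and 1.94 and 1.73 for Cd4 with Runx3. For Cd4 with Cd8b1 they were 1.80 and 1.53.

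Free RNA in droplets can give a cell UMIs of a gene that it does not express. Barcodes under 100 UMIs held Cd4 at 211 and 199 CPM, Cd8a at 423 and 434, Cd8b1 at 43.9 and 29.4, Zbtb7b at 16.2 and 9.68 and Runx3 at 221 and 243. Over the 5 other cell types, pooled over libraries, Cd4 was detected in 4.35% to 12.2% of cells, below the 25.9% of T cells, and Runx3 in 4.90% to 26.1%, below 37.5%. Cd8a was detected in 15.9% to 28.4% of these cells against 31.5% of T cells, and this gap came mainly from replicate 2. In replicate 1 their shares ran from 21.8% to 36.4% (T cells 33.1%) and in replicate 2 from 0% to 10.1% (T cells 29.9%). Cd8b1, at 0.585% to 4.90% against 6.29%, stood close to the others, and Zbtb7b, at 0% to 4.09% against 1.93%, lay within their range. The share of T cells with a Zbtb7b UMI is therefore not read as expression by itself. Of the readouts, free RNA held Itgae at 188 and 206 CPM and Gzma at 12296 and 13671 CPM. Both were above the Cd4-only class (150.4 and 167 CPM, 6646 and 7387 CPM). Other cell types had Itgae in 8.70% to 14.9% of cells against 25.6% of T cells, and Gzma in 70.1% to 85.3% against 85.5%. The part of free RNA in the class levels of both genes was not tested. The median depth before thinning was 3498 UMIs in T cells and 2746 to 6476 in the other types.

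Cd8b1 was higher wherever Cd8a was. It stood at 86.9 and 88.0 CPM in the Cd8a-only class, 85.1 and 84.5 in the double-detected class, 32.6 and 30.4 in the Cd4-only class and 28.1 and 29.0 with neither. The classes with Cd8a did not overlap the classes without it. How many of all genes showed such a gap was not counted. Classes were compared across all genes with edgeR, where 17.0% of 10337 genes tested were higher and 17.9% lower in Cd8a-only than in Cd4-only cells, and 9.93% were higher and 11.9% lower in double-detected than in Cd4-only cells. Cd8b1, Zbtb7b, Runx3, Itgae and Gzma were all called in both comparisons. Cd8a-only cells exceeded Cd4-only cells by a log2 fold change of 1.51 ± 0.097 (SE, adjusted p = 3.42e-22), and double-detected cells exceeded them by 1.46 ± 0.12 (adjusted p = 2.35e-16). There were 17.1 and 17.5 UMIs of Cd8a for each of Cd8b1 in Cd8a-only cells and 18.1 and 17.7 in double-detected cells. These are counts at 3' ends, and how well each transcript's end was captured was not tested.

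Zbtb7b was lower where Cd8a was detected, at a level of few UMIs. It stood at 22.2 and 16.9 CPM in the Cd4-only class (85 and 69 UMIs), 16.5 and 14.0 with neither (184 and 158), 7.0 and 4.53 in the Cd8a-only class (39 and 22) and 9.82 and 4.66 in the double-detected class (18 and 8). Again the classes with Cd8a did not overlap those without, a gap that was not counted over all genes. The log2 fold change was -1.71 ± 0.21 (adjusted p = 1.75e-10) in Cd8a-only and -1.39 ± 0.28 (adjusted p = 5.11e-05) in double-detected against Cd4-only cells. The second of these missed the threshold without Itgae-detected cells (-0.92, adjusted p = 0.06) and at 1000 UMIs (-1.11, adjusted p = 0.0667), while over the other 15 tested alternatives it passed.

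Runx3 was higher with Cd8a by a small amount. It stood at 371 and 423 CPM in Cd8a-only cells, 399.9 and 425 in double-detected cells, 303 and 343 in Cd4-only cells and 282 and 313 with neither. Within each library both Cd8a classes were above both others, and replicate 2 was above replicate 1 in every class. The log2 fold change against Cd4-only cells was 0.33 ± 0.05 (adjusted p = 7.11e-08) for Cd8a-only and 0.38 ± 0.058 (adjusted p = 1.48e-07) for double-detected cells.

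Itgae and Gzma were higher with Cd8a. Itgae, which pairs with Itgb7 to bind E-cadherin on epithelial cells, was at 452 and 551 CPM in Cd8a-only and 525 and 571 in double-detected cells, against 150.4 and 167 in Cd4-only cells and 127 and 131 with neither. Gzma, a granule protease, was at 33989 and 34750.1 CPM in Cd8a-only and 35328 and 33956 in double-detected cells, against 6646 and 7387 in Cd4-only cells. Neither gene overlapped between classes with and without Cd8a, again a gap not counted over all genes. The log2 fold changes against Cd4-only cells were 1.69 ± 0.056 and 1.82 ± 0.063 for Itgae and 2.33 ± 0.045 in both comparisons for Gzma (adjusted p at most 4.18e-37 and 6.91e-53). Both comparisons use the same Cd4-only sums. Itgae was also higher with Cd4 detected than without, at 272 and 286 against 235 and 257 CPM (log2 0.16 ± 0.038, adjusted p = 7.01e-04), a call that was lost without the library block and with DESeq2 (adjusted p up to 0.805). In that contrast Zbtb7b had a log2 difference of 0.34 ± 0.14 (adjusted p = 0.13) and Runx3 of 0.08 ± 0.035 (adjusted p = 0.206).

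**Figure D2:**
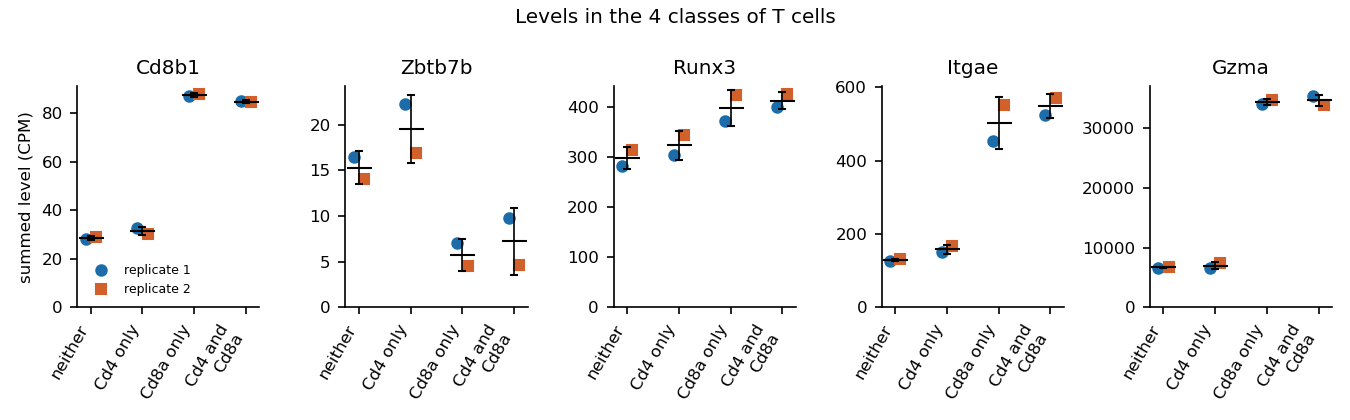
Summed level (CPM, axes from 0) of 5 genes in the 4 classes of thinned T cells. Points are libraries and black bars the mean and SD of 2; Cd8b1, Runx3, Itgae and Gzma are higher and Zbtb7b is lower in the 2 classes with Cd8a.

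**Figure D3:**
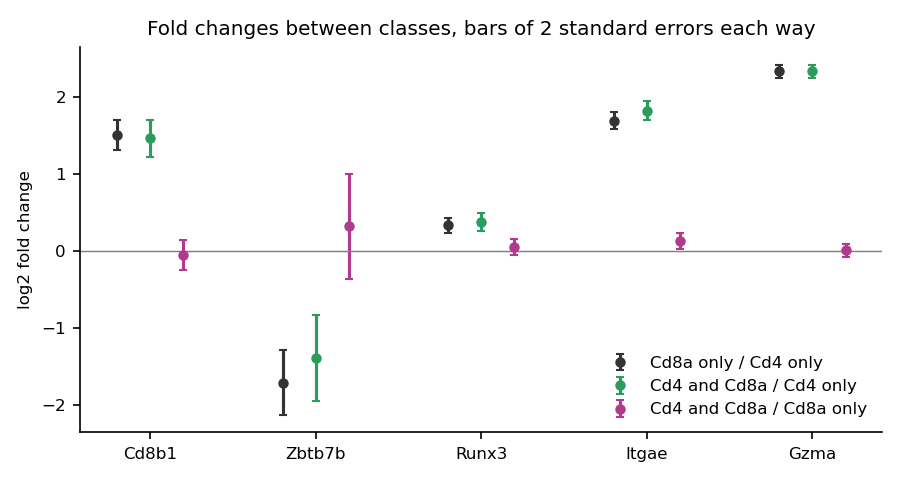
Log2 fold changes between classes with bars of 2 SE each way. Both Cd8a classes differ from Cd4-only cells for all 5 genes, and the bars of the double-detected against Cd8a-only comparison include 0 for Cd8b1, Zbtb7b, Runx3 and Gzma. The bar of Itgae lies above 0 (0.02 to 0.23), but Itgae was not called there (adjusted p = 0.425 in edgeR's test).

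The readouts also ranked with the number of Cd8a UMIs. From 0 through 1, 2 and 3 to 4 or more Cd8a UMIs, Gzma went from 6659.7 through 24206, 36788 and 41911 to 49587 CPM in replicate 1 and from 6917 through 25714, 37311 and 41065 to 45012 in replicate 2. Itgae went from 133 to 662 CPM and from 141 to 663. Each step of both genes was upward, except from 3 to 4 or more Cd8a UMIs for Itgae in replicate 2 (667 to 663). Runx3 went from 287 to 438 and from 321 to 442 CPM, with a step down from 2 to 3 UMIs in each library (415 to 405 and 458 to 411). Zbtb7b was at 18.0 and 14.8 CPM with 0 Cd8a UMIs and 3.76 and 2.38 with 4 or more. It stepped up from 8.34 to 11.8 between 1 and 2 UMIs in replicate 1 and from 1.94 to 3.90 between 2 and 3 in replicate 2. These values rest on few Zbtb7b UMIs: 21 and 3 with 2 Cd8a UMIs, 4 and 4 with 3, and 5 and 3 with 4 or more. Cd4 stayed between 184 and 223 CPM in all 10 values, without an order. By Cd4 UMIs, in contrast, Gzma was 15769 and 15164 CPM at 0 and 15161 and 15906 at 2 UMIs, and 15973 and 10968 in the 97 and 95 cells with 3 or more. These bins share the cells of the classes above and carry no test.

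**Figure D4:**
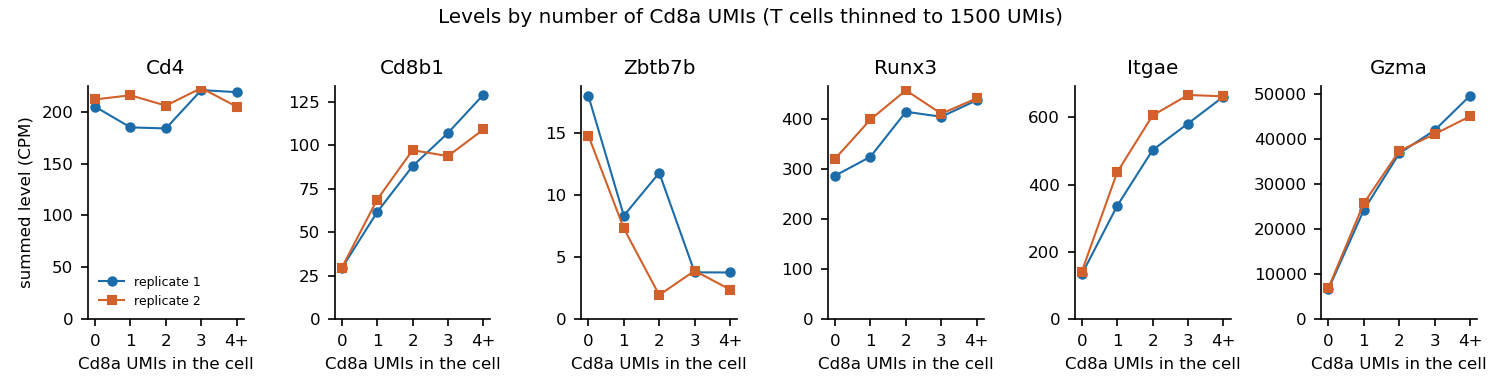
Summed level (CPM, axes from 0) of 6 genes in T cells with 0, 1, 2, 3 and 4 or more Cd8a UMIs, 1 line per library. Gzma climbs from 6659.7 to 49587 CPM in replicate 1, and Cd4 lies between 184 and 223 throughout. In replicate 1, Zbtb7b is at 18.0 with 0 and 3.76 with 4 or more Cd8a UMIs, the latter from 5 Zbtb7b UMIs.

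The difference in Gzma between Cd8a-only and Cd4-only cells was present with and without a UMI of Itgae. Among Itgae-undetected cells, Gzma was at 27679 and 29185 CPM in Cd8a-only and 4888 and 4996 in Cd4-only cells. Among Itgae-detected cells it was at 41974 and 39934 against 15162 and 18521. Runx3 without Itgae was at 338 and 395 CPM in Cd8a-only against 283 and 323 in Cd4-only cells. With Itgae it was at 414 and 449 against 397 and 435 CPM, a smaller gap within each library. There the classes overlapped between libraries, and the difference was not tested. Without Itgae-detected cells, the log2 fold changes of Cd8a-only against Cd4-only cells kept their calls for Cd8b1, Zbtb7b, Runx3 and Gzma.

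Few genes separated double-detected from Cd8a-only cells. Of 10337 genes tested, 10 were higher in double-detected cells (0.0967%) and 47 lower (0.455%), where an unadjusted p under 0.05 was reached by 943. None of the genes followed here was called: the log2 fold change was -0.05 for Cd8b1 (interval of 2 SE from -0.24 to 0.15), 0.32 for Zbtb7b (-0.36 to 1.0), 0.05 for Runx3 (-0.06 to 0.16), 0.13 for Itgae (0.02 to 0.23) and 0.0068 for Gzma (-0.08 to 0.09). The largest differences past the threshold were lower with Cd4 and in genes of dividing cells: Hist1h2ae (-0.86), Rrm2 (-0.78), Pclaf (-0.76) and Cdca8 (-0.73), and 4 of 12 proliferation genes were called, all lower (median -0.46 against 0.0034 over all genes). Higher were Plekha2 (0.63), Tnfsf8 (0.49), Penk (0.42) and Lmna (0.39). The count fell to 1 without the proliferating clusters 7 and 9, to 26 without cluster 2, to 27 without shared barcodes and to 14 with DESeq2. Without the library block it was 0, with 517 genes at an unadjusted p under 0.05.

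Among Cd8a-detected cells, few genes differed with a Cd8b1 UMI. Cd8a was at 1793 and 1695 CPM in the 558 and 472 cells with Cd8b1 and at 1462 and 1507 without it, higher in both libraries, with a log2 difference of 0.24 ± 0.061 that did not pass (adjusted p = 0.0539). It passed in 4 tested alternatives: RLE size factors in place of TMM (0.25, adjusted p = 0.0356), no thinning (0.25, adjusted p = 4.14e-06), without Itgae-detected cells (0.27, adjusted p = 0.0292) and without a cluster with fibroblast genes (0.24, adjusted p = 0.0413). Of 9507 genes tested, 2 were higher (0.0210%) and 13 lower (0.137%), and 533 had an unadjusted p under 0.05. Lower were Mrpl23 (-0.73), Ifitm3 (-0.72), the chemokine gene Ccl1 (-0.69) and the co-stimulator Cd28 (-0.60). The ratios in replicates 1 and 2 were -1.05 and -0.30 for Ifitm3, -1.14 and -0.15 for Ccl1 and -0.89 and -0.34 for Cd28, and close to each other for Mrpl23 (-0.74 and -0.73). Differences of Runx3 (0.08, interval -0.09 to 0.24), Cd4 (0.02, -0.18 to 0.22), Itgae (0.17, 0.01 to 0.32) and Gzma (0.18, 0.08 to 0.27) did not pass, and Gzma was at 41320.2 and 35233 CPM with Cd8b1 against 33428 and 34459 without it. Gzma passed with no thinning (0.24, adjusted p = 2.86e-06) and without Itgae-detected cells (0.23, adjusted p = 0.00699). With no thinning Itgae (0.17, adjusted p = 0.00394) and Zbtb7b (-0.85, adjusted p = 0.00289) passed too. Zbtb7b rested on 2 and 3 UMIs in the Cd8b1-detected cells. The fit had 1 residual degree of freedom, and its 15 calls were 0 with DESeq2 (19 at an unadjusted p under 0.05), 0 without the library block (335) and 0 without cluster 2 (472), whose cells are nearly all from replicate 1.

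Over the 12 T cell clusters of at least 100 cells, Cd8a fell into 2 ranges. Mean levels were 1601 CPM in cluster 3, 1169 in cluster 10, 1004 in cluster 7, 970.1 in cluster 12, 512 in cluster 6 and 465 in cluster 2, and 41.1 to 61.2 in clusters 1, 4, 5, 8, 9 and 11. The lowest library value of the first 6 was 409.8 CPM and the highest of the other 6 was 65.3. Since Cd8a was among the genes clustered, this is a description. Cd4 ran from 118 CPM in cluster 7 to 292 in cluster 1, a narrower range than that of Cd8a. Cluster 7 was led by histone and mitosis genes and cluster 1 by heat shock genes and Ccl1. The Cd4 level was 197 and 219 CPM in the 6 clusters with more Cd8a and 208 in each library in the rest. Zbtb7b ran from 1.83 CPM in cluster 7 to 32.2 in cluster 8, which was led by Tcf7, Slamf6 and S1pr1, genes of progenitor and recirculating T cells. Runx3 ran from 181 CPM in the same cluster 8 to 495 in cluster 12, and clusters 3 (479.7) and 12 were not separated beyond their spread. Cluster 8 thus held the most Zbtb7b and the least Runx3, in both libraries (34.0 and 30.3 CPM, 181 and 180.3 CPM).

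**Figure D5:**
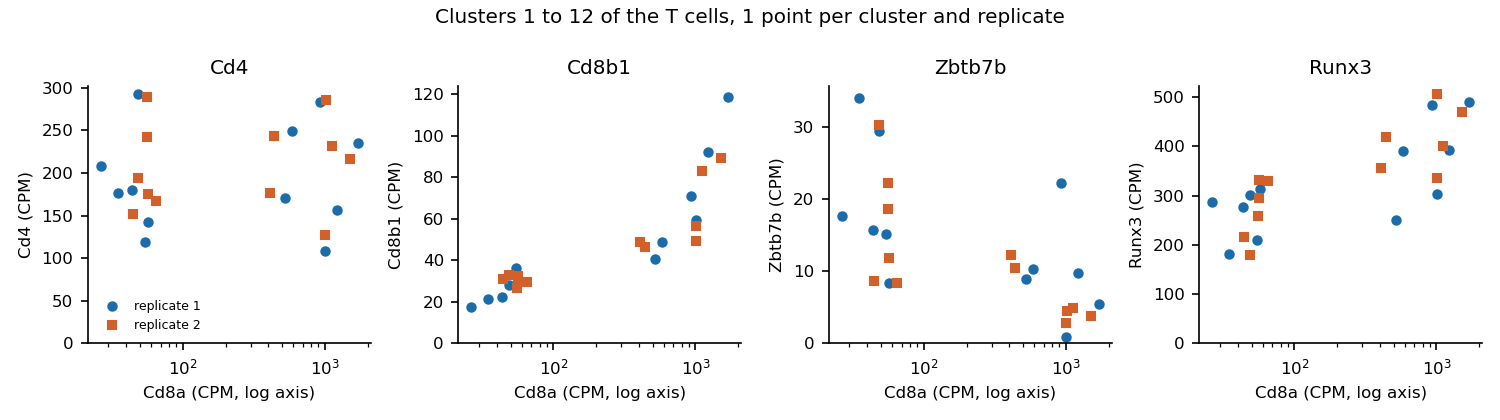
Levels (CPM) of Cd4, Cd8b1, Zbtb7b and Runx3 against Cd8a (CPM, log axis) in 12 T cell clusters, 1 point per cluster and library. Cd8a leaves a gap between 65.3 and 409.8 CPM, Cd8b1 and Runx3 are mostly higher to its right, Zbtb7b is mostly lower, and Cd4 spans 108 to 293 CPM on both sides.

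In the 6 clusters with less Cd8a, a Cd8a UMI was detected in 6.35% and 7.19% of cells, below the shares of other cell types in replicate 1 (21.8% to 36.4%) and within those of replicate 2 (0% to 10.1%). Per 1000 Gzma UMIs there were 37.5 and 40.6 of Cd8a, beside 34.4 and 31.7 in free RNA. The 6 clusters with more Cd8a had 31.1 and 29.5. Single clusters with less Cd8a ran from 8.82 and 19.0 (cluster 11, with 6 and 21 Cd8a UMIs) to 43.5 and 50.5 (cluster 5). Cd4 (162 and 149 against 17.1 and 14.6 in free RNA) and Itgae (56.5 and 41.1 against 15.3 and 15.1) did not keep such a ratio to Gzma. Cd8b1 did not keep one to Cd8a, with 56.7 and 54.6 per 100 Cd8a UMIs in the clusters with less Cd8a. Free RNA had 10.4 and 6.78, and the clusters with more Cd8a 7.20 and 6.84. The source of these UMIs was not tested. Cd8b1 was detected in 3.84% and 4.10% of cells of the clusters with less Cd8a. Those Cd8b1-detected cells had Cd8a in 11.4% and 17.3%, beside 6.35% and 7.19% of all cells of these clusters. In the clusters with more Cd8a, Cd8b1-detected cells had Cd8a in 78.3% and 75.4%, beside 62.1% and 60.2% of all cells. The clusters were grouped by Cd8a, so a gap in its detection between the 2 sets follows from the grouping.

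Within the clusters with more Cd8a, the classes were closer in Gzma, Itgae and Cd8b1. Gzma was at 37569.9 and 39982 CPM in Cd8a-only and 21915 and 24528 in Cd4-only cells, Itgae at 494 and 629 against 293 and 409, and Cd8b1 at 89.9 and 87.1 against 43.6 and 45.3. Zbtb7b was at 6.40 and 3.11 against 9.91 and 14.2 CPM, closer in replicate 1 but not in replicate 2. All cells of these clusters together held 81 and 60 Zbtb7b UMIs. Runx3 no longer kept its order, at 380.3 against 319 CPM in replicate 1 and 439 against 464 in replicate 2. In the clusters with less Cd8a, Gzma was at 2770.2 and 2287 against 1184 and 1382 CPM, Cd8b1 at 61.4 and 93.5 against 28.8 and 25.1 and Zbtb7b at 12.3 and 13.4 against 26.6 and 17.9. The clusters with more Cd8a, grouped by that gene's level, held 7148 of 14919 and 6279 of 14628 T cells. They held 3331 of 3713 and 2786 of 3235 Cd8a-only cells, a majority that follows from the grouping. Of Cd4-only cells they held 673 of 2554 and 706 of 2721.

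Ranked by Pearson correlation over the 24 values of 12 clusters in 2 libraries, among 2786 genes, Cd8a was most like Gzma (0.97), Cd244 (0.97), Cela1 (0.96) and Actn2 (0.95). Cd8b1 was most like Cd8a (0.92), Dok1, Cela1 and Itm2b (0.91 each). Cd4 was most like Tmx4, Hopx and Gramd1a (0.88 each) and Cxcr6 (0.86), and its correlation with Cd8a was 0.09. Zbtb7b was most like Cd52 (0.90), Tnfrsf18 (0.89), Il7r and Rpl24 (0.87 each), with -0.68 to Cd8a and -0.50 to Runx3. Runx3 was most like Rnf149 (0.92), Hip1 (0.89), Rab8b (0.87) and Cyth4 (0.86), with 0.75 to Cd8a. Values of 1 library share its depth and free RNA, and clusters are not replicates, so these are descriptions.

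Cd8a-only and Cd4-only cells differed across the transcriptome, with 1757 genes higher and 1854 lower in Cd8a-only cells. Against the same Cd4-only sums, 1026 genes were higher and 1230 lower in double-detected cells. The lists that follow are described by counts and medians, beside a median log2 fold change of 0.003 over all genes in the first comparison.

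Of 19 lineage transcription factors, 3 were higher in Cd8a-only cells (Runx3, its partner Cbfb, and Tox) and 11 lower, with a median of -0.35. Besides Zbtb7b, the lower ones included Tcf7 (22.1 and 19.0 against 59.0 and 54.4 CPM, -1.42 ± 0.12), a factor of naive and memory T cells, Id3 (-1.41) and Bach2 (-1.85, at 0.758 against 2.90 CPM on average), as well as Gata3, Lef1, Satb1, Bcl11b and Runx1. In double-detected cells 2 were higher and 9 lower. Of 16 genes of co-receptor and receptor signalling, 6 were higher, among them Cd3e (0.47 ± 0.04), Cd3g (0.39), Cd5 (0.51), a brake on receptor signals, and Lck, and 6 lower, among them Sla (-0.44) and Lat, with a median of 0.04.

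Genes of CD4 help were lower with Cd8a. Of 15 tested, 14 were lower in Cd8a-only cells and 1, Cd200, was higher, with a median of -1.74. Csf2, which encodes GM-CSF, was at 69.8 and 37.5 CPM against 246 and 241 (-2.14 ± 0.091). Tnfsf8, the CD30 ligand, was at 52.2 and 41.6 against 204 and 201 CPM (-2.07) and Tnfsf11, RANK ligand, at 33.4 and 20.2 against 116 and 96.0 (-1.95). Il4 passed at under 3 CPM in every value, with a ratio of -4.00 in replicate 1 and -0.25 in replicate 2. In double-detected cells, 10 of 15 were lower and 1 higher.

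The cytotoxic list was split, with 5 of 15 higher and 6 lower in Cd8a-only cells and a median of 0.04. Higher were Gzma, Gzmb (10761 and 10162 against 2497 and 2673 CPM, 2.05 ± 0.044), Prf1, Nkg7 and Klrd1. Lower were Ifng (546 and 542 against 953 and 1152 CPM, -0.91 ± 0.047), Eomes (26.2 and 29.1 against 57.7 and 67.9, -1.15 ± 0.11), Tbx21, Gzmc, Srgn and Ctsw.

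Genes of intraepithelial lymphocytes were mostly higher, 13 of 19 against 2 lower (Il2rb and Xcl1), with a median of 0.85. They included Cd244 (2.28 ± 0.088) and Cd160 (592 and 604 against 182 and 179 CPM, 1.76), receptors shared with natural killer cells, the gut-homing receptor Ccr9 (203 and 221 against 55.3 and 70.1 CPM, 1.79) and Gpr55 (2.08). Of 11 progenitor and egress genes 10 were lower and 0 higher, with a median of -1.13, among them Il7r (68.0 and 53.8 against 264 and 230.1 CPM, -1.98), Ccr7 (-1.78), S1pr1 (-1.77) and Slamf6 (-1.77). Of 11 genes of TGF-beta signalling, a pathway known to induce Itgae, 7 were lower, among them Smad3 (-1.0), Tgfbr3 (-0.76) and Skil (-0.75), and Smurf2 (0.77) was higher, with a median of -0.52. The difference of Tgfbr3 came from replicate 1 (5.21 against 14.9 CPM), since replicate 2 had 8.45 against 8.58.

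Among all genes, the largest rises included Slc16a11 (63.4 and 50.5 against 11 and 10.8 CPM, 2.42 ± 0.14), Cela1 (2.41), Fabp2 (2.40), Lyl1 (2.38) and Ncf1 (2.22), and the largest falls included Sdc4 (16.5 and 8.24 against 71.8 and 52.2 CPM, -2.29 ± 0.13), Prnp (-2.26), Il1r2 (-2.11) and the chemokine gene Ccl1 (201 and 133 against 691 and 696 CPM, -2.02). Slc16a11, Fabp2, Ncf1 (2.45) and Cd244 (2.45) also led the rises of double-detected against Cd4-only cells, and Csf2 (-2.09), Sdc4 (-2.02), Tm6sf1 (-1.88) and Ifitm3 (-1.86) the falls.

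Some markers of other cells were called as well, beside 17.0% of all genes tested higher and 17.9% lower in Cd8a-only cells. The part of these markers in the results was not tested. Epithelial genes Fabp1 (22.1 and 15.7 against 3.92 and 5.39 CPM) and Fabp2 (65.4 and 51.1 against 10.2 and 12.3), Lgals4, Reg3b and Reg3g were higher and the haemoglobin genes Hba-a1, Hba-a2 and Hbb-bs lower in Cd8a-only cells, 5 and 3 of 13 tested, median 0.34. Hba-a2 was at 1.26 against 13.8 CPM in replicate 1 and 4.12 against 3.92 in replicate 2, so its call rests on replicate 1. The 15 genes of this list summed to 138 and 140.3 CPM in Cd8a-only, 152 and 145 in double-detected and 126 and 97.3 in Cd4-only cells, with at most 1 gene at 0. Of 5 gamma-delta T cell genes tested, Tcrg-C4 was higher (354 and 407 against 72.0 and 100 CPM, 2.18) and Trdc (176 and 213 against 253 and 275, -0.41) and Tcrg-C1 (-0.96) lower, and the 9 genes summed to 549.6 and 652 against 358 and 418 CPM with 3 or 4 at 0. Of 4 natural killer or innate genes tested, Eomes and Klrk1 (-1.12) were lower, and the 10 genes summed to 135 and 108 against 262 and 248 CPM with 2 or 3 at 0. Of 10 neutrophil and basophil genes 1 was lower, S100a8 (-0.25), with sums of 119 and 414 against 121 and 499 CPM. Of 8 myeloid and B cell genes Itgax (1.83) was higher and Igkc (-1.12) lower, with sums of 263 and 272 against 281 and 294 CPM.

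Proliferation genes were higher in Cd8a-only cells, 10 of 12 with 0 lower and a median of 0.72, for example Rrm2 (215 and 125 against 95.3 and 77.4 CPM, 1.0 ± 0.078), Ube2c (0.84), Cdk1 (0.78) and Ccnb1 (0.74). In double-detected cells 1 of 12, Ube2c, was higher. Depth before thinning also went with Cd8a, with medians of 3435 and 4335 UMIs in Cd8a-only and 2983 and 3589 in Cd4-only cells.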

How the data were processed

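Libraries were made with the 10x Genomics single cell 3' v3 protocol, per the labels' protocols. The authors deposited raw counts (UMIs per gene and barcode, not normalized) for every barcode of the chemistry, made with Cell Ranger 3.1.0 and mm10 per the submitters' processing notes. Kept cells per library had at least 1000 UMIs, 500 genes and at most 10% mitochondrial UMIs (medians 2688 and 3699 UMIs). Clustering used scanpy 1.11.5 (2000 variable genes scaled to unit variance, 30 components, 15 neighbours, Leiden resolution 1), and scaling was added after a first clustering mixed lineages. Clusters with 3 markers of another cell type among 10 leading genes were left out. T cells were thinned to 1500 UMIs (seed 20) and classed by a UMI of Cd4, Cd8a or Cd8b1. UMIs were summed per class and library and tested with edgeR 4.0.16 (quasi-likelihood, TMM, filterByExpr, library as block, R 4.3.3), with Benjamini-Hochberg adjustment over all genes tested and 0.05 as threshold. SE is the fold change over the square root of F. DESeq2 1.42.0 was an alternative. The fits on Cd4 or Cd8a alone and the settings without shared barcodes or without a cluster were added after seeing the data, as was the grouping of clusters by Cd8a level (above 200 CPM). The edgeR test of Cd8a-only against Cd4-only cells was tested on simulated counts. Scrublet scores served only to leave out the highest 8% of cells in 1 alternative. The hashtag libraries, which list 0 hashtags, were not used.

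The genes and the 13 gene lists were chosen with earlier results of these data known. Named were the 5 genes, Itgae and Gzma in every comparison, up to 4 genes of each list past the threshold with the largest change in Cd8a-only against Cd4-only cells, and the 8 largest rises and falls of that comparison (4 of each in the other comparisons) among genes that reached 50 CPM in one class and had the same order in both libraries. Other genes were named only as list members past the threshold or as leading genes of a cluster, chosen after their values were seen.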

Additional observations from a re-analysis of the deposited data

How the results depend on the processing

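Cd8b1, Runx3, Itgae and Gzma kept direction and call in both comparisons with Cd4-only cells under every alternative run with a test, as did Zbtb7b in Cd8a-only cells. Leaving out replicate 1 or replicate 2 gives a ratio with no test; Zbtb7b in Cd8a-only against Cd4-only cells was then -1.90 and -1.66, Runx3 0.30 in each case and Itgae 1.73 and 1.59. Libraries shared by classes made the library a block. With no replicate block, the genes called were 2248 of the 3611 for Cd8a-only against Cd4-only cells, 1393 for double-detected against Cd4-only cells (2256 with the block), 0 for double-detected against Cd8a-only cells (57) and 0 for Cd8b1 detection (15). DESeq2 called 1733, 1265, 14 and 0 genes. For double-detected against Cd4-only cells, no thinning gave 5907 calls, 1000 UMIs 1232 and leaving out Itgae-detected cells 1127. For double-detected against Cd8a-only cells, calls were 86 with no low-count filter, 183 with no thinning, 7 at 1000 UMIs, 17 after a second random thinning, 12 with Cd8a detected from 2 UMIs, 37 without Cd8b1-detected cells, 31 without Itgae-detected cells, 27 without shared barcodes, 26 without cluster 2 and 1 without the cycling clusters. For Cd8b1 detection, calls were 555 with no thinning, 9 after a second random thinning, 6 with other cell types kept, 3 with Cd8a from 2 UMIs, 9 where a T cell receptor UMI was required, 8 without shared barcodes, 0 without cluster 2 and 1 without the cycling clusters. The cause was not tested, other than fewer cells or UMIs by construction. For Cd8a detected against undetected, calls were 4396 and ranged from 1421 with DESeq2 to 7038 with no thinning, and for Cd4 detected from 660 to 0 with no block and 1279 with no thinning (83 with DESeq2).

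Under the alternatives with a test, signs turned for differences that passed no threshold, except where a p is given. In double-detected against Cd8a-only cells these were Gzma (-0.01 with no low-count filter, -0.0038 without cluster 2, -0.0023 without the cycling clusters), Runx3 (-0.02 with no thinning, -0.0029 without Itgae-detected cells) and Cd8b1 (0.12 at 1000 UMIs, 0.04 after a second thinning, 0.02 without high doublet scores, 0.03 with Cd8a from 2 UMIs). With Cd8b1 detected, Cd4 turned to -0.01 with no low-count filter, -0.06 with no thinning and -0.06 without Itgae-detected cells. With Cd8a detected, Cd4 turned to 9.1e-04 after a second thinning, 0.0066 with other cell types kept, 0.01 with Cd8a from 2 UMIs, 0.0066 without cluster 2 and 0.02 without the cycling clusters. With Cd4 detected, Cd8a turned to 0.25 with no thinning (adjusted p = 4.18e-05) and 0.04 at 1000 UMIs. In a single library, without a test, signs also turned without replicate 1 for Gzma in double-detected against Cd8a-only cells (-0.03), for Itgae (-0.06) and Runx3 (-0.01) with Cd8b1 detected and for Cd4 with Cd8a detected (0.0016), and without replicate 2 for Cd4 with Cd8b1 detected (-0.03) and Cd8a with Cd4 detected (0.0068). Zbtb7b rested on 8 to 39 UMIs per library in the Cd8a classes.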
